A study of Mus musculus with 16 samples.

Results

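A set of 8 calcium/calmodulin-dependent protein kinase genes was followed, by name, through single-nucleus RNA counts from the prefrontal cortex (PFC) of mice. It holds Camk2a, Camk2b, Camk2d, Camk2g, Camk4, Camk1d, Camkk1 and Camkk2 of the 19999 genes in the count table. All 8 were found, and all 8 passed the filter on low counts in at least 6 of the 17 cell classes tested.

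These kinases carry calcium signals into phosphorylation. Calcium entering a neuron binds calmodulin, and the complex switches on CaMK2, a large holoenzyme built from alpha, beta, delta and gamma subunits (Camk2a, Camk2b, Camk2d, Camk2g) that is abundant at excitatory synapses and needed for long-term potentiation. A separate cascade runs through the CaMK kinases (Camkk1, Camkk2), which phosphorylate CaMK1 (here Camk1d) and the mainly nuclear CaMK4 (Camk4), and CaMKK2 also phosphorylates AMP-activated kinase. Camk2a RNA is carried into dendrites, and the Camk2a promoter is widely used to mark forebrain excitatory neurons.

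The study crossed genotype with repeated alcohol exposure, to ask how intoxication history bears on an Alzheimer's disease model. The 4 groups of 4 male mice, 22 weeks old, were WT control, WT alcohol, 3xTg-AD control and 3xTg-AD alcohol. Both the WT mice, by their labels, and the 3xTg-AD mice, by the study's methods, were of a B6;129 background. Among other alleles, 3xTg-AD mice carry human APP with the Swedish mutation and human tau with P301L, both driven by the neuronal Thy1 cassette. Alcohol mice inhaled ethanol vapor and were injected with ethanol and pyrazole, which slows alcohol breakdown. Controls were injected with pyrazole in saline and given air, and mice of all 4 groups had been tested in the Morris water maze.

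The table held 114512 nuclei and 216742276 unique molecules (UMIs), with 4955 to 9096 nuclei and 9622031 to 17544364 UMIs per mouse. Of the barcodes, 111112 occurred in 1 library, 1682 in 2 and 12 in 3. Of the libraries, 3 stood apart: Gm42418, a transcript that overlaps ribosomal RNA repeats, took at least 19092 CPM (counts scaled by the depth of the library) over all nuclei in WT control 26, WT control 27 and 3xTg-AD control 12, and at most 4093 CPM in the other 13 mice. Nuclei were clustered without the kinases and named from marker genes into glutamatergic types (layer 2/3, 5 and 6 intratelencephalic, IT; layer 5 extratelencephalic, ET; layer 5/6 near-projecting, NP; layer 6 corticothalamic, CT), 5 GABAergic types (Pvalb, Sst, Vip, Lamp5, Sncg) and 6 classes of other cells. A name stands for nuclei like that type, since the labels gave no cell type. WT control 27 also stood apart in composition: 107 Pvalb, 63 Sst and 56 Vip nuclei lay in clusters made up of that mouse alone. It also held 66.7% of the larger of the clusters named Meis2 neurons. The names of the glia and vascular classes were well separated, with 8 of 8 oligodendrocyte and 8 of 9 astrocyte markers highest in their own class, but only 1 of 6 markers was highest in its own class for L5 IT (Deptor) and, of 7 listed for L5 ET, 6 could be compared and 1 was (Bcl11b). For L6 IT, 2 of 6 markers were highest in their own class (Oprk1 and Zfp804b). A further 36113 nuclei outside the neuron clusters took no name and are described as unnamed. Most lay in clusters where Slc17a7, a glutamatergic gene, and Gad1, a GABAergic gene, were both above the other clusters. In the 4 largest of these, the log2 difference was 0.105 to 0.348 for Slc17a7 and 0.716 to 1.004 for Gad1. Neuron clusters without a type name entered only the pooled glutamatergic or GABAergic class, and 1588 nuclei of neuron clusters with markers of other classes entered neither. L6b (515 nuclei) and pericyte or smooth muscle clusters (211) were named but had too few nuclei in some mice to be tested. The 117 Sst Chodl nuclei entered only the pooled GABAergic class, and 1917 Meis2 or striatal neurons entered neither pooled class. Levels are CPM scaled by trimmed mean of M values, as mean ± SD over mice. Because UMIs tag 3′ ends and were not scaled to length, a level is compared between classes or mice for 1 gene at a time.

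Each kinase was detected in every mouse over all nuclei. Camk2a gave 209720 UMIs, with 8009 to 18847 per mouse, and was seen in 67.1% of nuclei. Camk4 was the sparsest, with 6149 UMIs, 220 to 834 per mouse, in 5.08% of nuclei, and Camkk1 gave 18904 UMIs, 705 to 1502 per mouse, in 13.9% of nuclei. Positions are given for 6 of the genes on GRCm38 with GENCODE vM21: chr11:5969644-6066362 (Camk2b, minus strand), chr3:126596302-126846326 (Camk2d, plus), chr14:20734875-20794088 (Camk2g, minus), chr2:5293457-5714515 (Camk1d, minus), chr11:73019008-73042073 (Camkk1, plus) and chr5:122731170-122779409 (Camkk2, minus). These spans cover the whole gene, introns included, and Camk2b and Camkk1 lie on the same chromosome.

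Camk2a, the alpha subunit, was higher in glutamatergic than in GABAergic neurons in 16 of 16 mice, with a within-mouse ratio of 1.49 to 2.16 and a median of 1.74. Its level was 637 ± 86.6 CPM in glutamatergic and 368.6 ± 63.0 CPM in GABAergic neurons (n = 16 mice each). Among glutamatergic types L2/3 IT stood highest at 805 ± 89.0 CPM, followed by L5 IT at 608 ± 78.4, L5 ET at 599 ± 75.1, L6 IT at 582 ± 70.5, L6 CT at 458 ± 91.7 and L5/6 NP at 366 ± 59.9. Vip neurons, at 570 ± 88.1 CPM, were the highest of the GABAergic types, and Sst (327 ± 56.9) and Pvalb (323 ± 69.0), the dendrite-targeting and the fast-spiking interneurons, were lowest of the 17 classes. No neighbouring pair in the order of the 17 classes differed by more than the larger of their SDs.

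Cells that are not neurons also carried Camk2a UMIs. The level was 889 ± 292 CPM in astrocytes, 772 ± 225 in endothelial cells, 731 ± 216 in microglia and 696 ± 203 in vascular leptomeningeal cells (VLMC), so the mean in each of these was above the pooled glutamatergic mean, whereas oligodendrocytes (624 CPM) and oligodendrocyte precursors (499 CPM) were below it. Droplets also take up free RNA, so 5 genes known mainly from glutamatergic neurons (Slc17a7, Arpp21, Sv2b, Neurod6, Chn1) were set beside it as references, with free RNA and expression of their own not told apart. They stood in GABAergic neurons at 13.4% to 58.5% of their glutamatergic level, and Camk2a, at 57.9%, lay inside that range. How much of the Camk2a level in GABAergic neurons is their own expression was not tested. In astrocytes the reference genes stood at 17.8% to 70.1% of their glutamatergic level, with a median of 48.5%. Camk2a stood in astrocytes at 139.5% of its glutamatergic level, above those 5 genes, and the astrocyte-to-glutamatergic ratio within a mouse ran from 1.02 to 2.31. The 2 astrocyte clusters differed: a Gfap-rich cluster of 655 nuclei stood at 2252 CPM, and the other, of 6635 nuclei, at 653 CPM, close to the glutamatergic mean. In microglia the reference genes reached 36.4% to 87.5% and Camk2a 115%. Camk2a was not alone in this. Ddn, Map1a and Ppp1r9b are among the top genes of the clusters richest in Camk2a, described below, so their likeness to Camk2a is partly built in. They stood at 159, 313 and 116 CPM in the larger astrocyte cluster and at 171, 346 and 128 in the larger microglia cluster. The glutamatergic clusters had at most 96.4, 217 and 53.5 CPM, and in the smaller microglia cluster only Ddn (99.2) was above that. Whether free Camk2a RNA, which sits in dendrites, accounts for the Camk2a levels outside neurons was not tested.

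**Figure D1:**
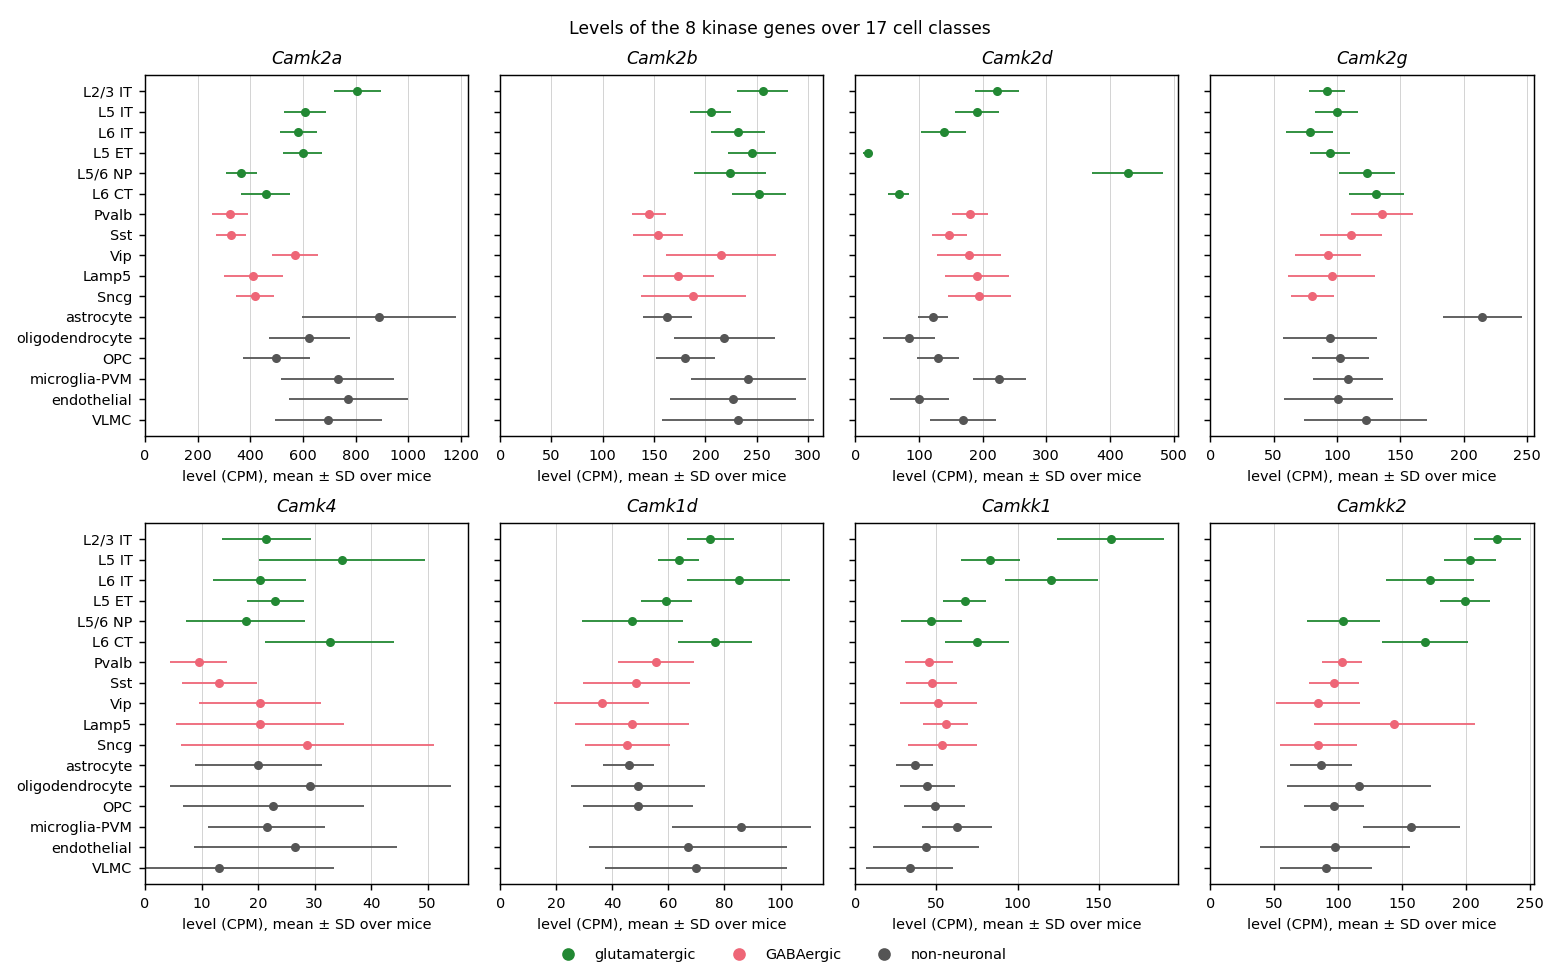
Level of each kinase gene (CPM, linear axis from 0, a separate scale for each gene) in the 17 cell classes; the points are means over mice and the bars are SDs (n = 16 mice, 15 for Lamp5 and VLMC). Camk2d peaks in L5/6 NP at 428 CPM and is lowest in L5 ET at 19.4, Camk2g peaks in astrocytes at 214.5 and Camkk1 in L2/3 IT at 157.

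The highest Camk2a levels were in unnamed nuclei, at 2535 ± 708 CPM, with an unnamed-to-glutamatergic ratio of 3.08 to 5.67 and a median of 4.02 (16 of 16 mice above 1). In this group 4 clusters stood out, at 1629, 1286, 3832 and 4797 CPM. They held 33392 nuclei, or 29.2% of nuclei and 15.1% of UMIs, and 44.3% of the Camk2a UMIs. The 15 glutamatergic clusters ran from 291 to 819 CPM with a median of 617.

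The last 2 of those clusters, of 9454 and 3327 nuclei, were led by Tmcc2, Ppp1r9b, Map1a, Ddn, Aldoc and Dact3. Ppp1r9b encodes the spine protein spinophilin, Map1a a microtubule-associated protein and Ddn dendrin, and Map1a and Ddn RNAs, like that of Camk2a, are found in dendrites. Ddn stood there at 783 and 910 CPM and the glutamatergic transporter gene Slc17a7 at 706 and 679 CPM, with a median of 877 and 1819 UMIs per nucleus. Astrocyte markers were raised there as well, 9 of 9 in the larger cluster and 8 of 9 in the smaller, with Slc1a2, the astrocyte glutamate transporter gene, at 2954 and 4125 CPM against 4805 CPM in the larger astrocyte cluster, and Apoe, Glul and Ndrg2 were among the top 10 genes of the smaller. The part of astrocyte RNA in these levels was not tested. Camk2b was at 435 and 427 CPM in these clusters, above its glutamatergic mean of 237, while Camkk1 was at 73.7 and 66.6 CPM, below its glutamatergic mean of 106. The other clusters of the set were led by Gm42418, Lars2 and hemoglobin genes, and by Ndufa4 and cytochrome oxidase genes. Per mouse, Camk2a ran from 2502 to 5995 CPM in the larger of these clusters and from 3517 to 7230 CPM in the smaller, and the ranges of the 4 groups overlapped in both.

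**Figure D2:**
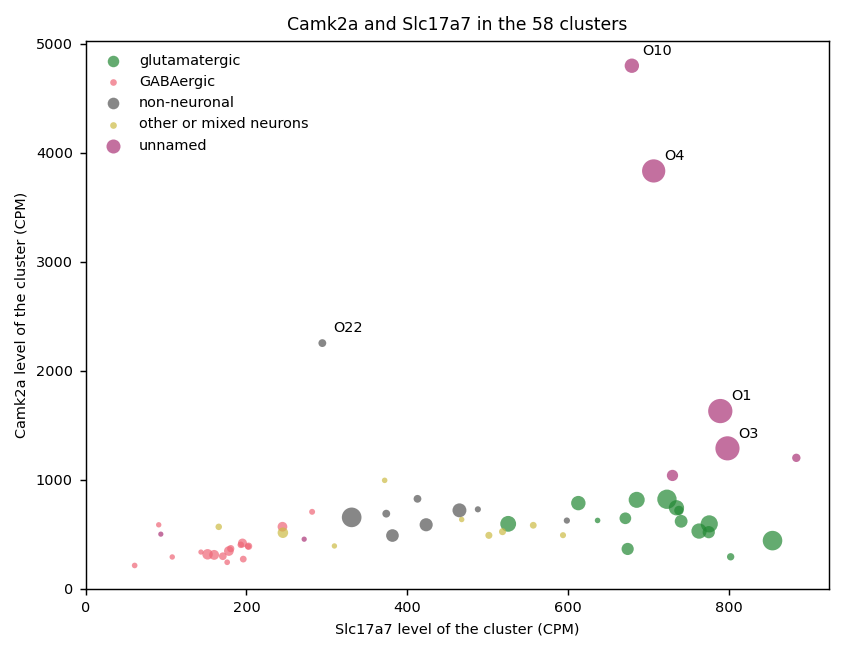
Camk2a level against Slc17a7 level (both CPM, linear axes from 0) of the 58 clusters, coloured by kind, with the area of a point growing with the number of nuclei; each point sums all 16 mice, without an error. The unnamed clusters O3, O1, O4 and O10 lie at 1286, 1629, 3832 and 4797 CPM of Camk2a, the Gfap-rich astrocyte cluster O22 at 2252, and the 15 glutamatergic clusters between 291 and 819.

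Over all nuclei, glutamatergic neurons held 59.6% of the UMIs of all genes but 39.0% of the Camk2a UMIs, and unnamed nuclei held 18.8% and 48.4%. For Camkk1 the glutamatergic share was 70.9%. Fewer nuclei of a class and less RNA per nucleus cannot be told apart in sums over all nuclei, so the comparisons of groups below were made within classes.

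Camk2b, the beta subunit that ties the holoenzyme to actin, was the most even of the 4 subunits across classes, with a 1.77-fold range between class means. It stood at 256 ± 24.8 CPM in L2/3 IT, 252 ± 25.98 in L6 CT and 246 ± 23.4 in L5 ET, and lowest at 154 ± 24.6 in Sst and 145 ± 16.4 in Pvalb. It was higher in glutamatergic than GABAergic neurons in 16 of 16 mice, by 1.21 to 1.74-fold with a median of 1.43. L2/3 IT and L6 CT did not differ beyond their spread, with L2/3 IT higher in 8 of the 16 mice.

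Camk2d, the delta subunit, varied most between classes, 22.1-fold from L5/6 NP (428 ± 56.2 CPM) to L5 ET (19.4 ± 7.52 CPM). Both ends of that order were set off: L5/6 NP differed from the next class, and L5 ET from L6 CT (68.1 ± 17.1 CPM), by more than the larger SD. The remaining named types lay between, with L2/3 IT at 223 ± 35.1, L5 IT at 191 ± 34.8 and L6 IT at 139 ± 35.6. In every mouse L5/6 NP was above L5 ET, by 12.2 to 56.1-fold with a median of 22.1. These levels rested on 1756 UMIs in L5/6 NP and 287 in L5 ET.

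In L5/6 NP neurons Camk2d stood at 464, 355, 408 and 396 CPM in WT control 26, 27, 28 and 36, at 442, 382, 410 and 470 in WT alcohol 6, 7, 17 and 18, at 475, 456, 333 and 432 in 3xTg-AD control 12, 13, 14 and 21, and at 437, 536, 351 and 501 in 3xTg-AD alcohol 4, 31, 33 and 34. Values for single mice below keep this order of groups and mice. In L5 ET neurons the same mice had 32.4, 11.7, 28.5 and 13.3, then 22.7, 31.4, 14.2 and 22.7, then 8.46, 20.4, 15.3 and 24.4, and then 24.2, 14.5, 15.6 and 10.3 CPM. The groups overlapped within each type, whereas no mouse of any group had as much Camk2d in L5 ET as the lowest mouse had in L5/6 NP.

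Camk2g, the gamma subunit, peaked in astrocytes at 214.5 ± 31.1 CPM, set off from Pvalb at 136 ± 24.4, and was lowest in L6 IT at 78.3 ± 18.6. The astrocyte level was 1.67 to 2.71-fold the glutamatergic one within a mouse (median 2.22, 16 of 16 mice). At 219% of its glutamatergic level in astrocytes, Camk2g stood above the 5 neuronal reference genes there (at most 70.1%), as did other kinases, 4 of the 8 in all. Astrocytes held 8.16% of Camk2g UMIs against 4.52% of all UMIs. Single mice had 261.5, 225, 249 and 201.5, then 217, 201.2, 197.5 and 235, then 208, 182.5, 160 and 263, and then 194, 202, 179 and 256 CPM in astrocytes. The 4 groups overlapped.

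The mix of CaMK2 UMIs is given for neuron types as shares of the UMIs of the 4 subunits. As with levels, the share of 1 subunit is compared between types or mice, and shares of different subunits do not measure their relative amounts. Free RNA, not told apart from a type's own, enters the shares too. Camk2a made up 55.8% ± 3.19 in glutamatergic and 44.7% ± 4.67 in GABAergic neurons (SD, n = 16). Camk2d rose to 37.5% ± 4.25 in L5/6 NP, beside 32.0% ± 4.38 for Camk2a, and was 2.02% ± 0.759 in L5 ET, where Camk2a took 62.3% ± 3.73. Camk2g took 17.4% in Pvalb and 14.4% in L6 CT but 6.70% in L2/3 IT. The fewest CaMK2 UMIs behind a share in 1 mouse were 126 for L5/6 NP and 559 for L5 ET.

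The Camk2a share was compared between groups in glutamatergic and GABAergic neurons, in 10 exact two-sided permutation tests of 4 against 4 mice. None passed, with adjusted p from 0.75 to 1.0, and the smallest p that 4 against 4 allows is 0.0286. The largest difference was WT alcohol (54.2% ± 1.42) below WT control (58.3% ± 4.09) in glutamatergic neurons, by -4.18 percentage points (exact permutation p = 0.0857, adjusted p = 0.75). It was -2.54 points without WT control 26 and -1.23 without the 3 mice high in Gm42418.

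Camk4, the mainly nuclear kinase that acts on the transcription factor CREB, was highest in L5 IT at 34.8 ± 14.7 CPM and L6 CT at 32.7 ± 11.4, and lowest in Pvalb at 9.47 ± 5.08. L2/3 IT had 21.5 ± 7.89 CPM. It passed the filter in 6 of the 17 classes, so the order among the others rests on few UMIs. Within a mouse, the glutamatergic level was 1.30 to 2.67-fold the GABAergic one, with a median of 1.68 (16 of 16 mice).

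Camk1d, the delta isoform of CaMK1, stood highest in microglia at 85.9 ± 24.8 CPM and close behind in L6 IT at 85.0 ± 18.4, with L6 CT at 76.7, L2/3 IT at 75.0 ± 8.32, L5 IT at 63.6, L5 ET at 59.2 and Vip lowest at 36.2 ± 17.04. It was tested in 12 classes. In microglia it stood at 123% of its glutamatergic level, above the 36.4% to 87.5% of the reference genes, as did other kinases, 5 of the 8 in all. Single mice had 98.7, 69.1, 35.6 and 64.1, then 106, 92.2, 118 and 81.4, then 105, 77.0, 72.4 and 110, and then 52.2, 127, 93.6 and 72.6 CPM in microglia. The groups overlapped, and the values rest on 296 UMIs in all.

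Camkk1 and Camkk2, the upstream kinases, were both highest in L2/3 IT. Camkk1 fell off steeply, from 157 ± 32.7 CPM in L2/3 IT to 121 ± 28.9 in L6 IT, 83.2 ± 18.2 in L5 IT, 74.8 ± 19.7 in L6 CT and 67.4 ± 13.1 in L5 ET, and both of its first steps exceeded the larger SD. L5/6 NP (46.9 ± 18.7), Sst (47.2 ± 15.7) and Pvalb (45.6 ± 14.7) did not differ beyond their spread. Within a mouse, L2/3 IT was 1.56 to 2.34-fold above L5 IT, and glutamatergic 1.70 to 3.05-fold above GABAergic neurons (16 of 16 mice each). In astrocytes Camkk1 stood at 34.7% and in GABAergic neurons at 46.6% of its glutamatergic level, both inside the range of the reference genes.

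Camkk2 was broader. It stood at 225 ± 18.1 CPM in L2/3 IT, 203 ± 20.5 in L5 IT and 199 ± 19.5 in L5 ET, at 157 in microglia, and lowest in Vip at 84.4. The glutamatergic-to-GABAergic ratio was 1.70 to 2.32 with a median of 1.90. Over the 17 classes the levels of the pair were correlated at Pearson r = 0.819, a description over classes of the same libraries. In L2/3 IT single mice had 270, 243, 220 and 214, then 238, 234, 227 and 225, then 221, 221, 209 and 217, and then 199, 233, 193 and 230 CPM of Camkk2. The groups overlapped except for WT alcohol, which lay above 3xTg-AD control, a pair that differs in both genotype and alcohol and was not tested. None of the contrasts below passed for Camkk2 in L2/3 IT (edgeR adjusted p of at least 0.481).

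Genotype, alcohol and their interaction were then tested within classes, with edgeR's quasi-likelihood test on counts summed per mouse, over 112 pairs of kinase and class in each of 8 contrasts. The contrasts share groups, most of all the WT control mice, and are therefore given side by side. A call means a Benjamini-Hochberg adjusted p of at most 0.05 over all genes of the class. Alcohol averaged over genotype gave 3 calls, all of them Camkk1 and all lower (0.789% of all 115309 gene-class pairs were called, 0.506% as lower), and 3xTg-AD alcohol against WT control gave 1, again Camkk1 and lower (1.21% called, 0.712% as lower).

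Camkk1 fell with alcohol in 3 glutamatergic types, L2/3 IT, L5 IT and also L6 CT neurons, of which the L6 CT call held in 9 of 24 alternatives and was lost without the 3 mice high in Gm42418. Averaged over genotype, the alcohol mice stood at 71.9% of the control level in L2/3 IT, 72.5% in L5 IT and 68.0% in L6 CT. The log2 fold change was -0.47 (SE 0.0939, edgeR adjusted p = 0.0137) in L2/3 IT, -0.46 (SE 0.104, adjusted p = 0.0210) in L5 IT and -0.53 (SE 0.134, adjusted p = 0.0401) in L6 CT. In those classes 1.34%, 1.12% and 0.81% of all genes tested were called lower.

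In L2/3 IT neurons Camkk1 stood at 177, 211, 179 and 184 CPM in the WT control mice, at 137, 135, 159 and 124 in WT alcohol, at 206, 179, 175 and 153 in 3xTg-AD control, and at 161, 124, 105 and 107 in 3xTg-AD alcohol. Of the 8 alcohol mice, 6 lay below every control mouse, and within WT the groups did not overlap. L5 IT values were 85.2, 121, 87.1 and 82.2, then 75.3, 75.8, 77.8 and 68.7, then 96.3, 114, 94.7 and 91.2, and then 79.6, 69.8, 66.8 and 45.9 CPM. Here all 8 alcohol mice were below all 8 controls, the closest being 3xTg-AD alcohol 4 at 79.6 and WT control 36 at 82.2 CPM. In L6 CT the values were 108, 103, 92.8 and 61.4, then 58.2, 64.5, 74.7 and 45.1, then 93.7, 87.7, 95.8 and 69.7, and then 73.3, 52.4, 65.4 and 50.8 CPM, so that the groups overlapped through WT control 36 and 3xTg-AD control 21.

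**Figure D3:**
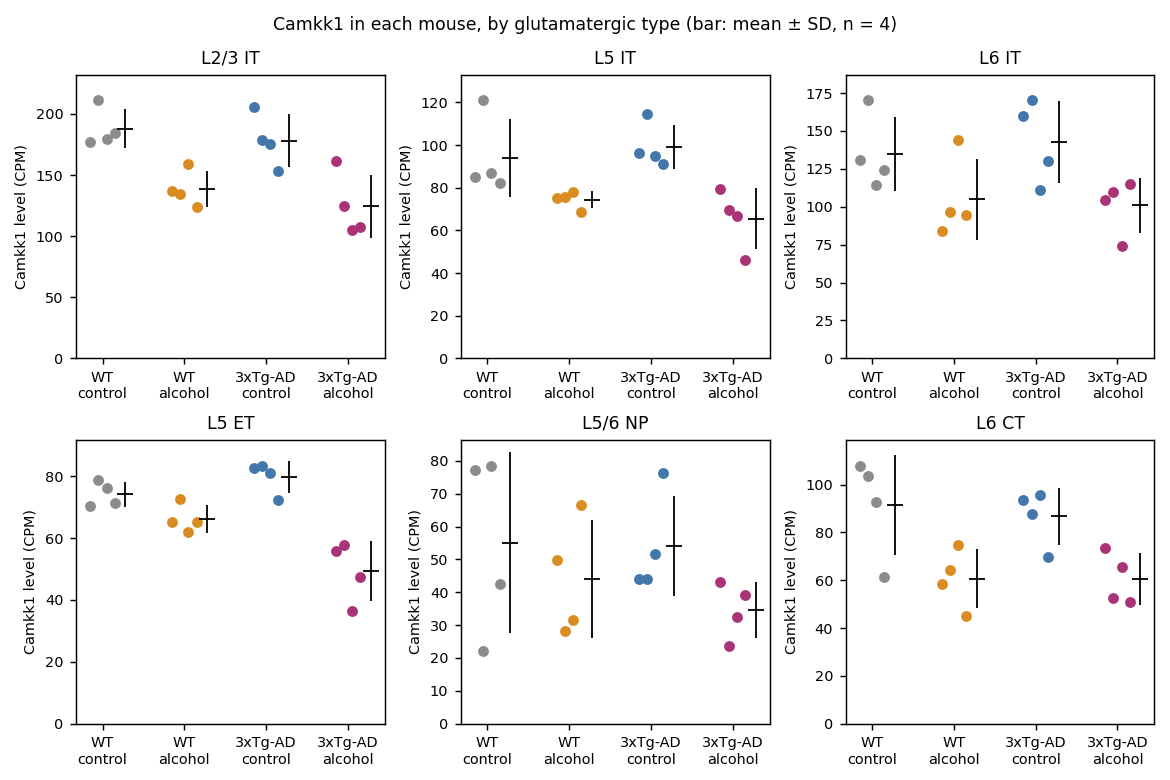
Camkk1 level (CPM, vertical axes from 0) in 6 glutamatergic types; each point is 1 mouse and the bar beside each group is its mean ± SD (n = 4). In L5 IT the 8 alcohol mice lie between 45.9 and 79.6 CPM, below the 8 control mice at 82.2 to 121.

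The other glutamatergic types had estimates of similar size that did not pass: -0.41 in L6 IT (adjusted p = 0.107), -0.42 in L5 ET (0.105) and -0.44 in L5/6 NP (0.483), all by edgeR. Among the alternatives, L6 IT passed without WT alcohol 17 (edgeR adjusted p = 0.0481) and L5 ET with DESeq2 (adjusted p = 0.0425). The log2 fold change was below 0 in 11 of the 11 classes in which Camkk1 was tested, from -0.15 to -0.53, and 5 of them had an unadjusted p under 0.05. Over the 8 kinases 10 of 112 pairs had one, against 13.1% of all pairs, and 80 of the 112 were below 0. The 11 classes come from the same mice and may share free RNA, so their common sign is not 11 separate observations. How often other genes keep 1 sign over their classes was not tested. Among the neuron types not tested for Camkk1, the alcohol mice stood at 97.9% of the control level in Vip, 101% in Sncg and 116% in Lamp5. These values rest on few Camkk1 UMIs per mouse, 1 to 11 in Vip, 3 to 11 in Sncg and 2 to 13 in Lamp5. Over all glutamatergic neurons Camkk1 fell by 0.46 on the log2 scale (SE 0.0879, adjusted p = 0.0147, with 1.8% of genes called lower). In GABAergic neurons the estimate was -0.15 (adjusted p = 0.579) and in unnamed nuclei -0.14 (0.610). The difference between glutamatergic and GABAergic neurons was not tested.

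Pair by pair, 3xTg-AD alcohol against WT control gave the largest Camkk1 difference in L2/3 IT, -0.58 (SE 0.133, edgeR adjusted p = 0.0161, with 1.85% of genes called lower). There the 3xTg-AD alcohol mice, at 105 to 161 CPM, did not overlap the WT control mice, at 177 to 211. In the same contrast L5 IT had -0.50 (adjusted p = 0.0688), L5 ET -0.57 (0.0968) and L6 CT -0.56 (0.149). Alcohol within a genotype did not pass in either: in L2/3 IT it was -0.51 in 3xTg-AD (adjusted p = 0.0791) and -0.44 in WT (0.269), and in L5 IT -0.58 (0.0669) and -0.33 (0.421). Within 3xTg-AD, glutamatergic neurons had -0.54 (adjusted p = 0.0580). The 3xTg-AD difference passed in 2 alternatives in L2/3 IT (DESeq2 adjusted p = 0.0342, and 0.0284 without 3xTg-AD alcohol 4), in 4 in L5 IT (0.0230 to 0.0481) and in 6 in glutamatergic neurons (0.00675 with DESeq2 to 0.0456). In L5 ET it passed with the ribosomal RNA share as a covariate (edgeR adjusted p = 0.0460) and without the 3 mice high in Gm42418 (0.0471). Genotype without alcohol gave -0.08 in L2/3 IT (adjusted p = 0.917).

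Whether alcohol acted differently on Camkk1 in the 2 genotypes was tested as an interaction. In glutamatergic neurons it was -0.15 (SE 0.176, edgeR adjusted p = 0.986). Among the classes, L5 ET had the smallest unadjusted edgeR p, 0.03003, with an interaction of -0.52 (adjusted p = 0.9996), where 3xTg-AD alcohol differed from 3xTg-AD control by -0.68 (adjusted p = 0.187). No interaction passed for any kinase: 0 of 112 by edgeR and 0 by DESeq2, with 1 at an unadjusted p under 0.05 (4.18% of all pairs had such a p and 0.0026% were called).

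The Camkk1 call in L2/3 IT for averaged alcohol held in 24 of 24 alternatives (edgeR or DESeq2 adjusted p 0.000678 to 0.0436). In L5 IT it held in 20 of 24 and was lost without WT alcohol 18 (adjusted p = 0.0638), 3xTg-AD control 13 (0.0582) or 3xTg-AD alcohol 34 (0.0515), and without nuclei carrying markers of another class (0.130). In L6 CT it held in 9 of 24, among them 4 of the 16 fits with a single mouse left out (WT control 36, WT alcohol 17, 3xTg-AD control 21 or 3xTg-AD alcohol 4), and without the 3 mice high in Gm42418 the estimate was -0.34 (adjusted p = 0.280). The call of 3xTg-AD alcohol against WT control in L2/3 IT held in 21 of 24 and was lost without 3xTg-AD alcohol 33 (adjusted p = 0.0798) or 34 (0.0578) and with the ribosomal RNA share as a covariate (0.0594).

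**Figure D4:**
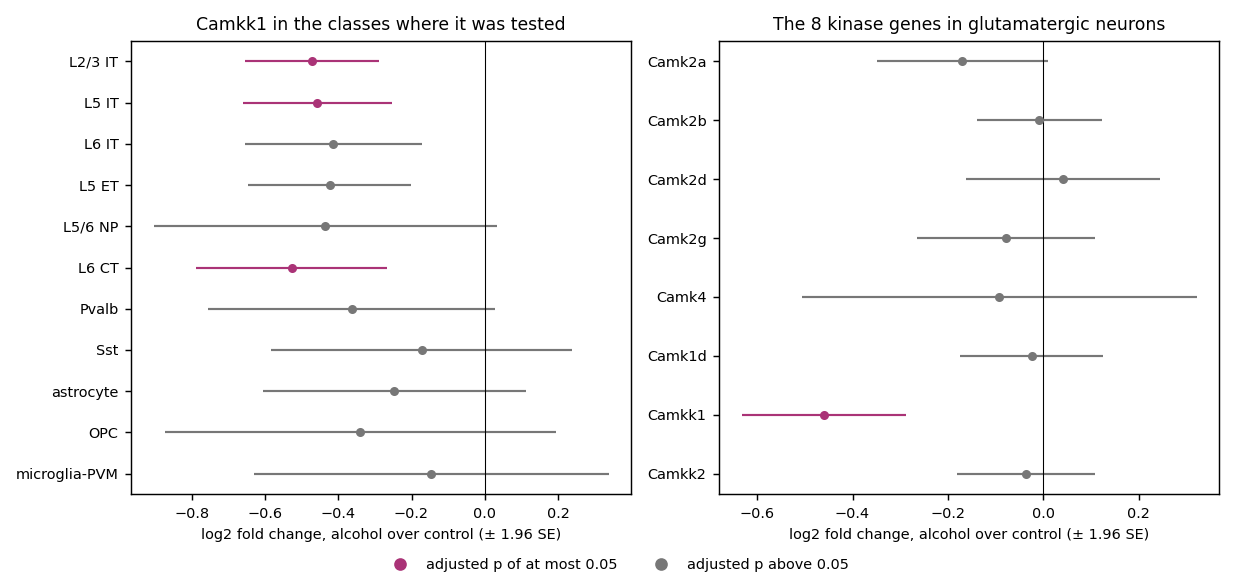
Log2 fold change of alcohol over control, averaged over genotype (edgeR, horizontal axes), for Camkk1 in the 11 classes where it was tested (left) and for the 8 kinase genes in all glutamatergic neurons (right); bars are 95% intervals from the standard error and purple points had an adjusted p of at most 0.05. Camkk1 passes in L2/3 IT (-0.47), L5 IT (-0.46) and L6 CT (-0.53) and over glutamatergic neurons (-0.46), and none of the other 7 kinases passes on the right.

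No other kinase was called in any contrast by edgeR. In glutamatergic neurons averaged alcohol gave -0.17 for Camk2a (SE 0.0916, adjusted p = 0.307), -0.01 for Camk2b, 0.04 for Camk2d, -0.08 for Camk2g, -0.09 for Camk4 (SE 0.211), -0.02 for Camk1d and -0.04 for Camkk2. The 0 calls in 3xTg-AD control against WT control stood beside 5 of 112 pairs with an unadjusted p under 0.05 and 0 calls by DESeq2 (over all pairs, 6.54% had such a p and 0.195% were called by edgeR). For WT alcohol against WT control there were 5 such pairs and 0 DESeq2 calls (8.97% and 0.0347% of all pairs), for 3xTg-AD alcohol against WT alcohol 11 and 0 (8.71% and 0.411%), for 3xTg-AD alcohol against 3xTg-AD control 5 and 2 (8.45% and 0.173%), and for genotype averaged over alcohol 12 and 0 (10.5% and 1.1%). In 3xTg-AD alcohol against WT control 23 of the 112 kinase pairs had an unadjusted p under 0.05 (12.5% of all pairs did) and 85 were below 0, with a median of -0.24 on the log2 scale against -0.002 over all pairs tested. That median was -0.11 without WT control 26 (80 of 112 below 0, 14 with such a p) and -0.10 without the 3 mice high in Gm42418 (69 of 109, 14). Over all nuclei WT control 26 was the highest of the 16 mice for Camk2a (1527 CPM), Camk2g (153), Camk4 (67.6), Camk1d (87.9) and Camkk2 (239). Averaged genotype also had 85 of 112 below 0, with a median of -0.11, averaged alcohol 80, with a median of -0.08, and the other 4 contrasts between groups 70 to 82. Without the 3 mice these became 68, 65 and 53 to 77 of 109.

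For 3xTg-AD alcohol against WT control, each of the other kinases was examined in its highest class. None of the 7 passed: Camk2a in astrocytes -0.31 (SE 0.32, edgeR adjusted p = 0.757), Camk2b in L2/3 IT 0.13 (0.595), Camk2d in L5/6 NP 0.18 (0.818), Camk2g in astrocytes -0.18 (0.693), Camk4 in L5 IT -0.38 (0.659), Camk1d in microglia 0.32 (0.715) and Camkk2 in L2/3 IT -0.15 (0.481). Camk2a in astrocytes spread widely between mice, at 1519, 735.5, 1059 and 1009, then 1257, 994, 568 and 653, then 632, 637, 1069 and 617, and then 707, 890, 1283 and 593 CPM. All 4 groups overlapped there. Camk2b in L2/3 IT had 256, 198, 235 and 260, then 279, 257, 231 and 245, then 247, 280, 291 and 274, and then 265, 266, 225 and 284 CPM, again with overlapping groups.

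Camk2g came closest to a genotype difference. In L2/3 IT, 3xTg-AD averaged over alcohol stood at -0.31 against WT on the log2 scale (SE 0.0913, edgeR adjusted p = 0.0757). Single mice had 120.5, 94.3, 110 and 86.1 CPM in WT control, 103, 91.5, 108 and 96.8 in WT alcohol, 96.4, 69.9, 81.0 and 92.7 in 3xTg-AD control, and 81.0, 74.1, 72.2 and 92.9 in 3xTg-AD alcohol, and the genotypes overlapped. The adjusted p was 0.0437 without WT control 36. In oligodendrocytes the estimate was -0.75 (adjusted p = 0.0871), on 241 UMIs, and the adjusted p was 0.0412 without WT control 27. In unnamed nuclei, Camk2g in 3xTg-AD alcohol against WT control had -0.44 (adjusted p = 0.0583) and passed in 4 alternatives, with an adjusted p of 0.0204 without WT control 36.

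Camk4 group differences depended on which mice were kept, among them the libraries high in Gm42418. In L5 IT it stood at 82.5, 44.8, 18.2 and 19.1 CPM in WT control, 33.6, 38.8, 32.1 and 32.4 in WT alcohol, 42.9, 24.7, 31.04 and 27.8 in 3xTg-AD control, and 32.1, 29.6, 38.0 and 28.9 in 3xTg-AD alcohol. In these neurons WT control 26, WT control 27 and 3xTg-AD control 12, the 3 mice high in Gm42418, were also the 3 highest for Camk4. The same held over all glutamatergic neurons, at 56.6, 32.2 and 32.4 CPM against 14.6 to 26.9 in the other 13 mice. Averaged alcohol gave -0.14 for Camk4 in L5 IT with all mice (edgeR adjusted p = 0.839). In L2/3 IT, Camk4 in 3xTg-AD alcohol against WT control stood at -0.54 with all mice (edgeR adjusted p = 0.352). It passed as lower, at -0.83 (adjusted p = 0.0445), without WT control 28, a mouse not high in Gm42418.

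Without the 3 mice high in Gm42418, averaged alcohol gave 0.54 for Camk4 in L5 IT (SE 0.126, edgeR adjusted p = 0.0163) and 0.43 in glutamatergic neurons (SE 0.0898, adjusted p = 0.0117). With the ribosomal RNA share as a covariate the values were 0.59 (adjusted p = 0.0259) and 0.50 (0.0192). For 3xTg-AD alcohol against WT control, L5 IT moved from -0.38 to 0.79 (SE 0.199, adjusted p = 0.0333). That fit kept 2 WT control mice, the lowest for Camk4 at 18.2 and 19.1 CPM. All 3 mice left out were controls and had been the highest for Camk4, so their removal by itself raises alcohol over control. Gm42418 was high only in control mice, so the covariate is tied to the same mice and is not a separate check. No alcohol difference in Camk4 is drawn from these fits.

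**Figure D5:**
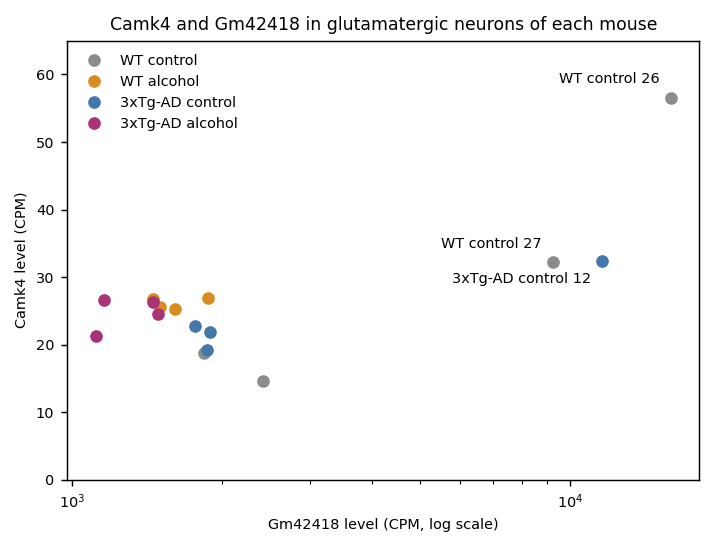
Camk4 level (CPM, vertical axis from 0) against Gm42418 level (CPM, log axis) in glutamatergic neurons; each point is 1 mouse, coloured by group, with no error bar. WT control 26, WT control 27 and 3xTg-AD control 12 lie to the right, at 56.6, 32.2 and 32.4 CPM of Camk4, and the other 13 mice lie at 14.6 to 26.9.

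Over the other 13 mice, the level of each kinase over all nuclei was compared with Gm42418 as log2 CPM, in 8 permutation tests. None passed correction. Camk2g had the smallest p (Pearson r = 0.57, permutation p = 0.0439, adjusted p = 0.351, Spearman rho = 0.61). Its r was 0.26 without the 2 mice farthest from the Gm42418 median, 3xTg-AD alcohol 4 and 31. Camkk1 had r = 0.44 (permutation test, adjusted p = 0.535), and r was 0.56 without the 2 mice. Camk4 had r = -0.07 (rho = -0.04, permutation test, adjusted p = 0.924), and r was -0.40 without the 2 mice.

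Around the kinases, 59 genes of calcium and calmodulin signalling were examined, covering calmodulins and their buffers, CaMK2 inhibitors, channels, phosphatases and substrates. Of these, 58 were tested, in 771 gene-class pairs per contrast. Genotype averaged over alcohol called 2 pairs up and 1 down (1.1% of all pairs called), 3xTg-AD alcohol against WT control 0 up and 3 down (1.21%), and the other 6 contrasts 0. In both contrasts with calls, the listed pairs were called less often than pairs of all genes. The calls are therefore given as single genes and not as a result about the list. In the 6 contrasts without calls, between 28 and 71 pairs had an unadjusted edgeR p under 0.05 (4.18% to 13.1% of all pairs did), and 0 to 2 were called with DESeq2.

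Dapk1, a calmodulin-regulated kinase linked to cell death, was higher in 3xTg-AD mice. The difference averaged over alcohol was 0.50 in L6 CT (SE 0.108, edgeR adjusted p = 0.00828) and 0.43 in L5 IT (SE 0.0963, adjusted p = 0.0130). In L6 CT single mice had 87.7, 113, 145 and 153, then 156, 144, 152 and 127, then 181, 229, 192 and 193, and then 224, 172, 163 and 177 CPM. The 8 WT mice lay below every 3xTg-AD mouse there, whereas in L5 IT the genotypes overlapped and 6 of the 8 WT mice did. Both Dapk1 calls held in 23 of 24 alternatives and were lost without nuclei carrying markers of another class (0.36, adjusted p = 0.401, in L6 CT and 0.35, adjusted p = 0.134, in L5 IT), and all 24 estimates were above 0 in both. Rasgrf1, a Ras exchange factor regulated by calmodulin, was lower in L6 CT, by -0.64 (SE 0.143, adjusted p = 0.0203), with 206, 174, 169 and 170, then 181, 340, 154 and 140, then 149, 147, 108 and 101, and then 112, 122, 119 and 100 CPM. Its genotypes overlapped, and the call was lost without WT control 26 (adjusted p = 0.0570) or 3xTg-AD alcohol 34 (0.0524) and without the 3 mice high in Gm42418 (0.150).

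Camk1, the alpha isoform of CaMK1 and a substrate of the CaMKKs, was lower in L2/3 IT in 3xTg-AD alcohol than in WT control, by -0.43 (SE 0.118, edgeR adjusted p = 0.0440). The values were 189, 184, 156 and 129 CPM in WT control against 117, 118, 127 and 124 in 3xTg-AD alcohol, which did not overlap. This call held in 8 of 24 alternatives and in 4 of the 16 with a single mouse left out, with an adjusted p of up to 0.154 without WT control 26, and without the 3 mice high in Gm42418 the estimate was -0.23 (adjusted p = 0.366). Rcan2, a regulator of the phosphatase calcineurin, differed by -0.89 in L2/3 IT (adjusted p = 0.0327), at 32.7, 16.4, 19.1 and 25.4 against 9.62, 15.4, 14.2 and 11.1 CPM. Pde1c, a calmodulin-dependent phosphodiesterase, differed by -1.70 in L5 IT (adjusted p = 0.0329), from few UMIs, at 6.25, 3.50, 7.05 and 11 against 2.10, 2.76, 1.75 and 1.60 CPM. Neither pair of groups overlapped. The Rcan2 call held in 16 of 24 alternatives and was lost without WT control 26 (adjusted p = 0.155) or 36, or 3xTg-AD alcohol 4, 33 or 34, without the 3 mice high in Gm42418 (0.0844), with the ribosomal RNA covariate (0.0957) and without nuclei carrying markers of another class (0.155). The Pde1c call held in 15 of 23 and was lost with the covariate (0.0681) and without WT control 26, 28 or 36, or 3xTg-AD alcohol 4, 31, 33 (0.0979) or 34.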

How the data were processed

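Single-nucleus RNA from PFC was made into libraries with 10x 3′ chemistry v3.1, and the authors deposited 1 table of raw UMI counts per gene and nucleus. Per the submitters' processing notes, reads were aligned with Cell Ranger 6.1.1 and STAR to mm10. Here nuclei were scaled to 10000 UMIs, and 2000 variable genes (kinases and related genes excluded), 30 components, 20 neighbours and Leiden clustering at resolution 1.5 (leidenalg 0.10.2, Python 3.11.15) gave clusters, named where at least 3 markers, and no fewer than were not, were raised 1.5-fold, no other type led the top 10 genes, 50 or more nuclei were present and, outside neurons, Slc17a7 was not above the other clusters. No doublet caller was run. Nuclei with at least 2 UMIs of another class's markers were left out as an alternative. Counts were summed per mouse and class (10 nuclei per mouse, 3 mice per group at least) and fitted for all 16 mice with edgeR 4.0.16 (quasi-likelihood, TMM, filterByExpr). Lamp5 was fitted without WT control 27 and VLMC without WT control 36. DESeq2 1.42.0, no filter, stricter nuclei (500 genes, 5% mitochondrial), a ribosomal RNA covariate, leaving out mice and other class rules were alternatives. Nuclei with shared barcodes were left out as an alternative added after seeing the data. Named were the 8 kinases (all classes, single mice in the highest class and in calls) and called genes of the pathway list. Some items of the lists and genotypes are not reported here. Members and lists were chosen with earlier results of these data known. Depth limits precision for sparse genes, and separate mice are the replicates. The fits were tested on simulated data.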

Additional observations from a re-analysis of the deposited data

Results flagged for a closer look

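In 56 groups of 4 mice, the mouse at either end was compared with the rest by Dixon's ratio, whose 95% limit chance exceeds in about 1 in 20 groups, and 2 groups were picked out. Camk2a in astrocytes stood at 1070 CPM in 3xTg-AD control 14, against 617 to 637 CPM in the other 3 mice of that group. Camkk1 in L5 IT neurons stood at 121 CPM in WT control 27, one of the mice high in Gm42418, against 82.2 to 87.1 CPM in the other WT control mice. The averaged alcohol call for Camkk1 in L5 IT neurons held without that mouse.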

How the results depend on the processing

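No paired analysis was possible because replicate numbers are mouse numbers, which the groups do not share. The count of kinase calls in 3xTg-AD alcohol against 3xTg-AD control (0) was 2 with DESeq2, 2 with the ribosomal RNA covariate, 2 without the 3 mice high in Gm42418 and 0 to 1 with single mice left out. In 3xTg-AD alcohol against WT control (1) it was 0 with the covariate, 2 without those 3 mice and 0 to 3 with single mice left out: 3 without WT control 36, 2 without WT control 28 and 0 without 3xTg-AD alcohol 33 or 34. For genotype averaged over alcohol (0) it was 0 to 1 (WT control 27 or 36 left out), and for averaged alcohol (3) 1 without mixed nuclei and 1 to 4 with single mice left out, 1 without WT alcohol 18, 3xTg-AD control 13 or 3xTg-AD alcohol 34. The other 4 contrasts stayed at 0 over the 17 classes in all 24 alternatives. Outside those classes, Camk2a in unnamed nuclei, 3xTg-AD control against WT control (-0.54, edgeR adjusted p = 0.403), passed without WT control 36 (-0.72, adjusted p = 0.0336). Camk4 in L5 IT, 3xTg-AD alcohol against WT control (-0.38), turned to 0.70 with the covariate, to 0.79 without the 3 mice and to 0.28 without WT control 26, the range with single mice left out being -0.66 to 0.28. The Camk2a share turned in sign, always far from passing: GABAergic 3xTg-AD alcohol against WT alcohol (-0.125 points) to 0.396 as a mean over nuclei and 0.744 without mixed nuclei, with -2.72 to 2.31 over single mice left out, and glutamatergic 3xTg-AD control against WT control (-2.34) to 0.428 without the 3 mice. Leaving out single mice gave -0.232 to 2.96 for GABAergic 3xTg-AD control against WT control, -4.11 to 0.124 for GABAergic WT alcohol against WT control, -0.3 to 2.16 for glutamatergic 3xTg-AD alcohol against WT alcohol and -2.33 to 0.323 for glutamatergic 3xTg-AD alcohol against 3xTg-AD control. The causes were not tested beyond the libraries named. Sparse genes limit the rest: Camk4, Camkk1 and Camk1d could be tested in only 6, 11 and 12 of the 17 classes. The edgeR p-values set a group difference against a spread between mice that was estimated over all groups of a fit.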

Other observations

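For each kinase, the genes whose level over the 17 classes was most like it were ranked by Pearson r among 11788 genes, as a description over classes that share libraries. Camkk1 was closest to Hace1 (r = 0.946), Fbxo27 (0.915) and Gm15567 (0.902), and Camkk2 to Cckbr (0.913), the cholecystokinin B receptor gene, and Htr1b (0.913), a serotonin receptor gene. Camk2a was closest to Itpka (0.887), which encodes an inositol trisphosphate kinase of dendritic spines, and Camk2b to Baiap2 (0.893). Camk2d was closest to Prkca (0.771), the protein kinase C alpha gene. Camk2g was closest to Sfxn5 (0.868), Acot11 (0.825) and Prdm16 (0.821), Camk4 to Sprn (0.911) and Camk1d to Fosl2 (0.846).

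In pooled nuclei, called genes of the pathway list included Cacnb1, a calcium channel subunit, lower with averaged alcohol in GABAergic neurons (log2 fold change -0.54, edgeR adjusted p = 0.0386). Rcan2 was lower in unnamed nuclei in 3xTg-AD alcohol than in WT control (-0.52, adjusted p = 0.0427), and Dapk1 was higher in 3xTg-AD glutamatergic neurons averaged over alcohol (0.34, adjusted p = 0.0305).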
